A study of Caenorhabditis elegans with 6 samples.

Results

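The genes described here are 10 molting factors and zona pellucida matrix genes of Caenorhabditis elegans: mlt-3, mlt-7, mlt-8, mlt-9, mlt-10, mlt-11, nas-36, nas-37, noah-1 and noah-2. They were chosen by name. Their probes were found through the sequence name of each spot, which gave 10 of 17889 named genes and 14 of 22490 C. elegans probes on the array. Nematodes of strain N2 exposed to 2 organophosphorus pesticides at once, 0.5 mg/L of chlorpyrifos (CPF) together with 1 mg/L of diazinon (DZN), were hybridised against control nematodes on 6 arrays of 2 colours, with the CPF+DZN sample in Cy5 on 3 arrays and in Cy3 on the other 3. Both groups were N2 raised at 24 °C from synchronized eggs on agar seeded with OP50 bacteria. The CPF+DZN plates held both pesticides in acetone, and the control plates held acetone alone. The labels give the nematodes as L3/L4 at 72 h, while the study's methods give the late L3 stage after a shorter time, which leaves the exact age of the samples unsettled. Each sample was total RNA of whole nematodes pooled from dishes, so fewer cells of a type and less RNA per cell cannot be told apart. Neither pesticide alone was analysed here.

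At each molt the larval epidermis makes a new cuticle below the old one, detaches from the old one and sheds it. Secreted proteins of the apical matrix, many with a zona pellucida (ZP) domain, shape the surface while the cuticle is exchanged. Proteases loosen the old cuticle, protease inhibitors hold that step in check, peroxidases cross-link the new cuticle, and endocytosis in the epidermis supplies sterols and recycles membrane. Many genes of the molt are transcribed in a pulse once per larval stage under nuclear receptors such as NHR-23 and NHR-25.

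On the 6 arrays 44.1 to 54.9% of the C. elegans probes were well above background in the CPF+DZN channel, against 47.9 to 58.1% in the control channel. Well above background means a foreground median more than 2 background SDs over the background median. The log2 ratios of CPF+DZN over control correlated between arrays at r = 0.237 to 0.714 over all features, and lowest for the array of CPF+DZN in Cy5 replicate 3 (0.276 on average). The scanner headers gave the CPF+DZN samples 5 distinct extract numbers on 6 arrays (Cy5 replicate 2 and Cy3 replicate 1 shared one) and the control samples 6. The slide numbers 89 and 90 (Cy5 replicates 1 and 2) lay apart from 108, 111, 112 and 113, and are called the earlier and the later slides below. These names follow the slide number alone and give no order in time. Slides 89, 112 and 113 (Cy5 replicate 1, Cy3 replicate 2 and Cy3 replicate 3) were scanned on 1 shared day. Oocyte genes were lower in CPF+DZN nematodes (13 of 15 measured) and so were all 6 vitellogenins, which encode yolk proteins made in the adult intestine. Although the labels give larvae, 11 of the 15 oocyte genes and all 6 vitellogenins were well above background in both channels on all 6 arrays. These counts changed when 1 array was left out. Without Cy3 replicate 3, 1 oocyte gene and 1 vitellogenin were called, and without Cy3 replicate 2, 1 and 4. Without Cy5 replicate 1 they were 3 and 4, without Cy5 replicate 2, 5 and 5, and without Cy3 replicate 1, 6 and 5. Without Cy5 replicate 3 they were 14 and 6. The count over all features moved as well, from 2636 to between 535 and 4609. Over the fits with 1 array left out, the oocyte median ran between -1.71 and -1.16 and the vitellogenin median between -1.96 and -1.39. The values of both lists are set beside those of the molting genes below.

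Of the 10 molting genes 4 were higher in CPF+DZN nematodes after adjustment over all features and none was lower: mlt-11, mlt-3, noah-2 and noah-1, by 1.39 to 1.58-fold. Over all 18999 features 13.9% were called at an adjusted p under 0.05 in limma, 6.74% higher and 7.13% lower. Among the 6775 features well above background in both channels on all 6 arrays, as 9 of the 10 genes were, 24.5% were called and 13.2% were called higher. At an unadjusted p under 0.05 the number was 6 of 10, with mlt-7 and mlt-9 added, against 28.9% of all features. On all 6 arrays the ratio was above 0 for 3 of the 10 genes, against 8.76% of all features, and 17.4% of all features had the same sign on all 6. No gene of the 10 had every CPF+DZN signal above every control signal, as 0.658% of all features did. The median log2 ratio of the 10 genes was 0.39, and that of all features was 0.00013. In limma with median centring in place of loess 1 of the 10 was called, and with plain background subtraction none was (5 at an unadjusted p under 0.05). In the linear model of the study's methods, as refitted here, none was (3 at an unadjusted p under 0.05). With 1 array left out 1 to 5 were called, 1 without Cy3 replicate 3 and 5 without Cy5 replicate 3. Each limma p-value and interval rests on how much a feature varies among these 6 hybridisations, with that variance drawn toward one pooled over all features. For genes of large spread, such as mlt-7 and mlt-10, the intervals are therefore narrower than their own 6 ratios alone would give. The number of hybridisations limits the precision.

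**Figure D1:**
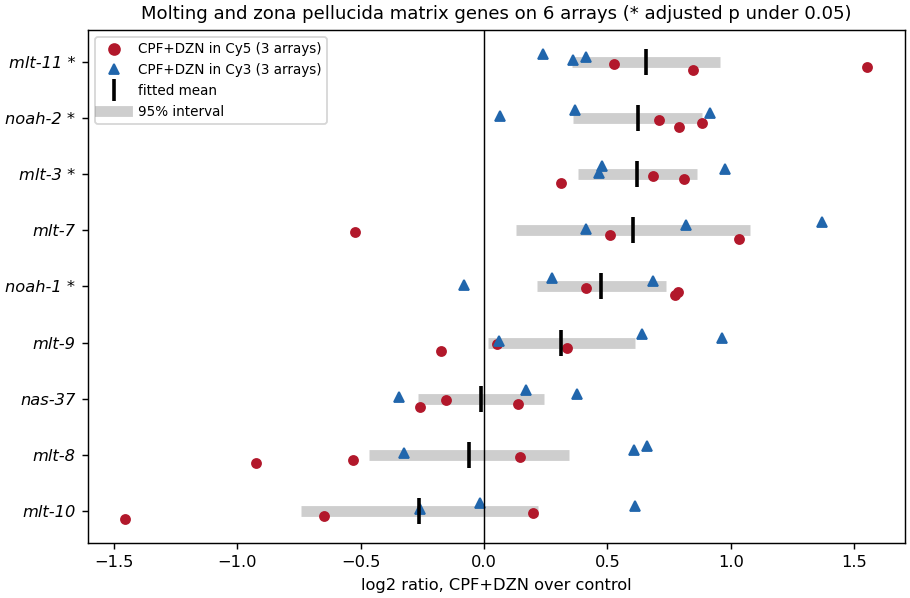
Log2 ratio of CPF+DZN over control (horizontal axis) for the 9 genes well above background, with 1 point per array, circles for CPF+DZN in Cy5 and triangles for CPF+DZN in Cy3, a black line for the fitted mean and a grey bar for its 95% interval; an asterisk marks an adjusted p under 0.05. For mlt-3, mlt-11 and noah-2 all 6 arrays lie above 0, whereas mlt-10 spreads from -1.45 to 0.61.

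The matrix genes noah-1 and noah-2 encode ZP-domain proteins of the apical extracellular matrix of the epidermis, needed for the larval body surface and for molting. The probe of noah-2 (F52B11.3, chromosome IV) gave a normalised log2 signal of 10.80, 10.94 and 12.93 (lowest, median and highest) in CPF+DZN nematodes, against 10.00, 10.61 and 12.05 in control nematodes. The groups overlapped because the signal of noah-2 was higher on the earlier slides in both channels, but on every array the CPF+DZN signal was the higher one. The log2 ratios of noah-2 were 0.79, 0.88 and 0.71 with CPF+DZN in Cy5 and 0.06, 0.92 and 0.37 with CPF+DZN in Cy3. The mean was 0.62 ± 0.34 (SD, n = 6 arrays), which is 1.54-fold (95% interval 1.28 to 1.85) with an adjusted p of 0.0155 in limma. The call was lost without Cy5 replicate 2 (adjusted p = 0.0594), without Cy3 replicate 3 (adjusted p = 0.0652) and within the later slides alone (adjusted p = 0.102) in limma.

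For noah-1 (C34G6.6, chromosome I) the array held 3 probes. The one named for transcript C34G6.6a was bright, with 10.78, 11.36 and 12.02 (lowest, median and highest log2 signal) in CPF+DZN nematodes, against 10.37, 11.02 and 11.24 in control nematodes. Both probes named for C34G6.6b were never well above background, so they gave no measured level. On 5 of 6 arrays the CPF+DZN signal of noah-1 was the higher one. Its log2 ratios were 0.78, 0.79 and 0.41 with CPF+DZN in Cy5 and -0.08, 0.69 and 0.28 with CPF+DZN in Cy3. The mean ratio of 0.48 ± 0.34 (SD, n = 6) gave 1.39-fold (1.16 to 1.67), with an adjusted p of 0.0319 in limma. This was the weakest of the 4 calls. It was lost when the 3 probes were averaged (adjusted p = 0.111) and when any of 4 arrays was left out, namely Cy5 replicate 1, Cy5 replicate 2, Cy3 replicate 2 or Cy3 replicate 3 (0.0945 to 0.109 in limma).

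The 2 noah genes moved together over the arrays more than any other pair of the 9 genes well above background, with r = 0.955 between their 6 log2 ratios. Both had their lowest ratio on Cy3 replicate 1. Such r values are over 6 arrays that share dye, slide and hybridisation, and are given as a description only.

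The protease inhibitor mlt-11 (W01F3.3, chromosome V) encodes a secreted protein with Kunitz-type inhibitor domains. Its log2 signal was 8.79, 9.84 and 10.11 (lowest, median and highest) in CPF+DZN nematodes, against 8.38, 9.06 and 9.63 in control nematodes. Its log2 ratios were 0.85, 1.55 and 0.53 with CPF+DZN in Cy5, and 0.36, 0.41 and 0.24 with CPF+DZN in Cy3. Every Cy5 array thus gave a larger ratio than every Cy3 array, with means of 0.98 for Cy5 and 0.34 for Cy3. The difference between orientations did not pass the test over all features (dye effect 0.32, unadjusted p = 0.0396 and adjusted p = 0.640 in limma), and 0.0211% of all features did. The mean ratio was 0.66 ± 0.49 (SD, n = 6), which is 1.58-fold (1.28 to 1.94) with an adjusted p of 0.0190 in limma. On the earlier slides, both of them Cy5 arrays, the mean ratio of mlt-11 was 1.20, against 0.39 on the later ones. Within the later slides the adjusted p of limma was 0.0709, and without Cy5 replicate 1 or without any of the 3 Cy3 arrays it was 0.0510 to 0.0751.

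The proteases nas-37 and nas-36 encode astacin metalloproteases that break down the old cuticle during ecdysis. The signal of nas-37 (C17G1.6, chromosome X) was 9.47, 10.18 and 10.84 in CPF+DZN nematodes, against 9.77, 10.18 and 10.70 in control nematodes (lowest, median and highest log2 signal). The groups overlapped almost wholly. Its log2 ratios were -0.26, 0.14 and -0.15 with CPF+DZN in Cy5 and -0.34, 0.37 and 0.17 with CPF+DZN in Cy3, with a mean of -0.01 ± 0.28 (SD, n = 6). The 95% interval ran from -0.27 to 0.24 on the log2 scale, so the arrays left room for a modest change either way (adjusted p = 0.963 in limma). For nas-36 (C26C6.3, chromosome I) the array held 2 probes. One was well above background in the control channel of 1 array and in no CPF+DZN channel, and the other in none, so no fold is given for nas-36.

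**Figure D2:**
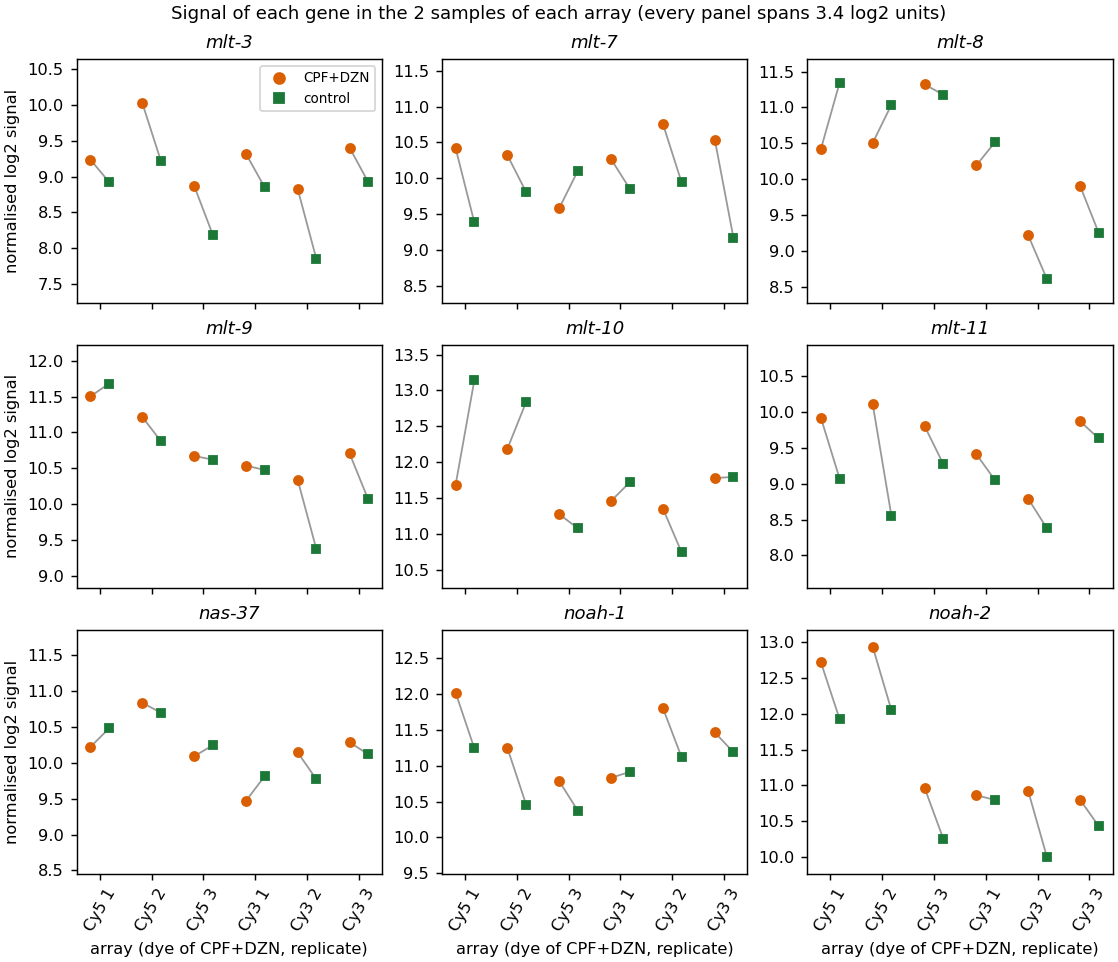
Normalised log2 signal (vertical axis, the same span in every panel) of each gene on each array (horizontal axis), with CPF+DZN as circles left of control as squares and a line joining the samples of 1 array. The control signals of mlt-8, mlt-9 and mlt-10 span 2.31 to 2.74 log2 units, against 0.92 to 2.11 in CPF+DZN nematodes.

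The peroxidase gene mlt-7 (ZK430.8, chromosome II) encodes a secreted heme peroxidase that helps to cross-link the cuticle. Its log2 signal was 9.58, 10.37 and 10.76 (lowest, median and highest) in CPF+DZN nematodes, against 9.17, 9.83 and 10.11 in control nematodes. On 5 arrays the ratio was above 0, between 0.41 and 1.37, and on Cy5 replicate 3 it was -0.52. The mean of 0.60 ± 0.65 (SD, n = 6) was about as large as that of mlt-3, but its 95% interval was wider (0.13 to 1.08) and the adjusted p was 0.0933 in limma. Without Cy5 replicate 3, the array least like the rest, the log2 ratio of mlt-7 was 0.82 with an adjusted p of 0.00531. With Cy5 replicate 3 kept, mlt-7 was also called with the foreground mean (adjusted p = 0.0386 in limma), with dim probes left out (0.0492) and with the scan day as a block (0.0484).

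The scaffold gene mlt-3 (Y39C12A.1, chromosome IV) encodes an ankyrin-repeat protein that works with the kinases NEKL-2 and NEKL-3 and with MLT-2 and MLT-4 in endocytosis of the epidermis. Its log2 signal was 8.83, 9.28 and 10.03 (lowest, median and highest) in CPF+DZN nematodes, against 7.85, 8.89 and 9.22 in control nematodes. The log2 ratios of mlt-3 were 0.31, 0.81 and 0.68 with CPF+DZN in Cy5 and 0.47, 0.97 and 0.48 with CPF+DZN in Cy3. All 6 arrays gave a higher CPF+DZN signal, and the orientations had mean log2 ratios of 0.60 (CPF+DZN in Cy5) and 0.64 (in Cy3). The mean was 0.62 ± 0.25 (SD, n = 6), or 1.54-fold (1.30 to 1.82), with an adjusted p of 0.0125 in limma. It was the steadiest of the 4, and the call held without any single array (adjusted p = 0.00758 to 0.0497 in limma). Without Cy5 replicate 2, Cy3 replicate 2 or Cy3 replicate 3 it held only just (0.0487 to 0.0497). The fitted log2 ratio of mlt-3 was 0.66 within the later slides and 0.52 within the 3 arrays scanned on 1 day. The call was lost with background subtraction (adjusted p = 0.0930 in limma), with median centring (adjusted p = 0.102) and in the linear model of the study's methods (adjusted p = 0.553).

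The genes mlt-8, mlt-9 and mlt-10 were found through RNA interference to be needed for molting. Of these, mlt-10 encodes a secreted protein with proline-rich repeats, and its promoter is widely used to report the molting cycle. The signal of mlt-10 (C09E8.3, chromosome II) was 11.27, 11.57 and 12.19 in CPF+DZN nematodes, against 10.74, 11.76 and 13.14 in control nematodes (lowest, median and highest log2 signal). The control samples thus spread over 2.40 log2 units and the CPF+DZN samples over 0.92. On the earlier slides the log2 signal of mlt-10 averaged 11.94 in CPF+DZN nematodes, against 12.99 in control nematodes. On the later slides it averaged 11.46 in CPF+DZN nematodes, against 11.33 in control nematodes. The 6 log2 ratios were -1.45, -0.65 and 0.20 with CPF+DZN in Cy5 and -0.26, 0.61 and -0.02 with CPF+DZN in Cy3, with a mean of -0.26 ± 0.72 (SD, n = 6; 95% interval -0.74 to 0.22; adjusted p = 0.481 in limma). Within the later slides the fitted effect of mlt-10, beside its dye term, had the other sign (0.15), and within the 3 arrays scanned on 1 day it was -0.58. Those 3 arrays, Cy5 replicate 1, Cy3 replicate 2 and Cy3 replicate 3, had ratios of -1.45, 0.61 and -0.02. Each of these fits held only 1 array with CPF+DZN in Cy5, which the dye term fits exactly.

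For mlt-8 (W08F4.6, chromosome II) the log2 signal was 9.21, 10.31 and 11.32 in CPF+DZN nematodes, against 8.61, 10.78 and 11.34 in control nematodes (lowest, median and highest). Its log2 ratios were -0.92, -0.53 and 0.14 with CPF+DZN in Cy5 and -0.32, 0.61 and 0.66 with CPF+DZN in Cy3. The signs split evenly, 3 and 3, and the mean was -0.06 ± 0.64 (SD, n = 6; 95% interval -0.46 to 0.34; adjusted p = 0.877 in limma). The ratios of mlt-8 and mlt-10 followed each other over the arrays (r = 0.895). Both genes lie on chromosome II with 5 annotated genes between them in the RefSeq annotation, of which lips-7 and C09E8.1 were measured above background and had log2 ratios of 0.30 (adjusted p = 0.158 in limma) and 0.41 (adjusted p = 0.0559).

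For mlt-9 (F09B12.1, chromosome X) the probe named for transcript F09B12.1b gave 10.34, 10.69 and 11.50 in CPF+DZN nematodes, against 9.37, 10.55 and 11.68 in control nematodes (lowest, median and highest log2 signal). The probe named for F09B12.1a was never well above background. The log2 ratios of mlt-9 were -0.18, 0.34 and 0.05 with CPF+DZN in Cy5 and 0.06, 0.96 and 0.64 with CPF+DZN in Cy3. The mean was 0.31 ± 0.43 (SD, n = 6; 95% interval 0.02 to 0.61), and the adjusted p was 0.152 in limma. None of the alternatives tried brought mlt-9 past the threshold.

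The 9 genes differed widely in their spread over arrays. Among the 6775 features well above background throughout, whose median SD was 0.298, the SD of mlt-10 lay at percentile 96.7, mlt-7 at 94.3 and mlt-8 at 93.8, while mlt-3 lay at 35 and nas-37 at 45.0. Over the 9 genes the median log2 ratio was 0.31, 0.51 and 0.20 on the arrays with CPF+DZN in Cy5 and 0.06, 0.69 and 0.37 on those with CPF+DZN in Cy3. Between 5 and 9 of the 9 were above 0 on each array, 9 of them on Cy3 replicate 2 alone. Of the 36 pairs among the 9 genes 25 had r above 0, with a median of 0.355. Besides noah-1 with noah-2 and mlt-8 with mlt-10, r exceeded 0.8 for mlt-9 with nas-37 (0.930) and for mlt-9 with mlt-8 (0.806). The lowest values were those of mlt-11 with mlt-8 (-0.643) and with mlt-10 (-0.542).

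**Figure D3:**
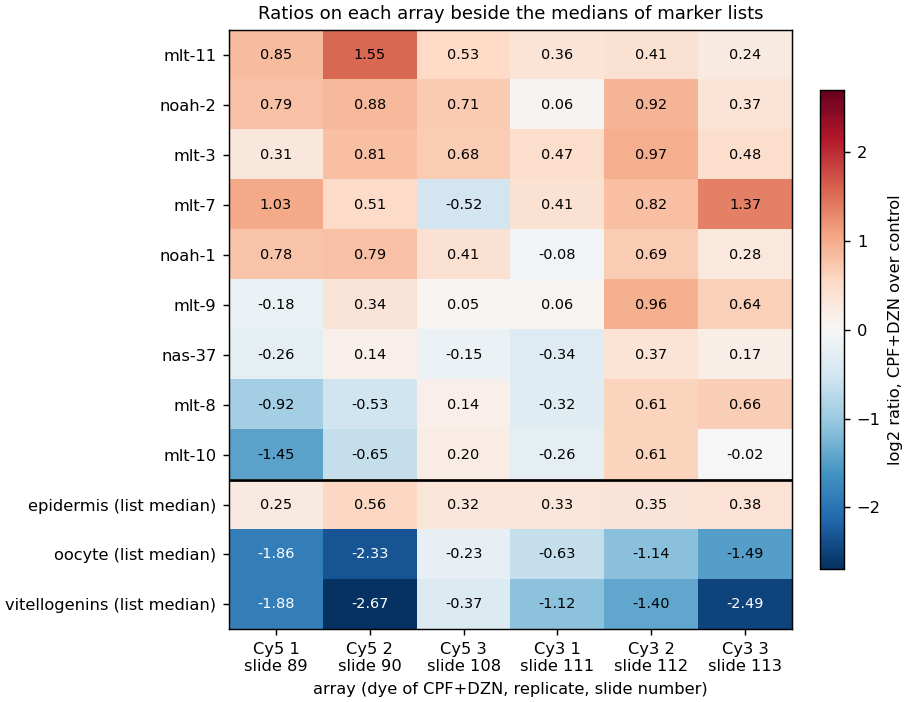
Log2 ratio of CPF+DZN over control (colour and printed value) of the 9 genes well above background on each of the 6 arrays (columns, with dye of CPF+DZN, replicate and slide number), above the medians of 3 marker lists. The columns of Cy5 replicates 1 and 2 hold the largest ratios of mlt-11 and the lowest of mlt-10 and mlt-8, and the oocyte and vitellogenin medians are nearest to 0 on Cy5 replicate 3.

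The slide series was fitted as a further term beside treatment and dye. All Cy3 arrays lay on later slides, so this term set Cy5 replicates 1 and 2 against Cy5 replicate 3 alone, which is fitted exactly. The term was 1.30 for mlt-7 and -1.25 for mlt-10. Over the arrays themselves, the mean log2 ratio of mlt-7 was 0.77 on the earlier slides and 0.52 on the later ones. That of mlt-10 was -1.05 on the earlier slides and 0.13 on the later ones. With a single array on 1 side of that contrast, a difference between slide series was not tested. The median log2 ratio of the oocyte list was -1.86 and -2.33 on the earlier slides and -0.23 to -1.49 on the later ones. That of the vitellogenins was -1.88 and -2.67 on the earlier slides and -0.37 to -2.49 on the later ones, so it did not split by slide series. The part of oocyte RNA and of the slide series in the spread of mlt-7, mlt-8, mlt-10 and mlt-11 was not tested.

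The features whose 6 ratios were most like those of mlt-3 were searched among 6774 features well above background throughout. The most alike were nhr-114 (r = 0.972), which encodes a nuclear hormone receptor, F14B8.5 (r = 0.969) and lrp-1 (r = 0.962), a megalin-like receptor of the epidermis that is itself needed for molting. Of these F14B8.5 (log2 ratio 0.71, adjusted p = 0.00636 in limma) and lrp-1 (0.52, adjusted p = 0.0216) were higher in CPF+DZN nematodes, and nhr-114 had a log2 ratio of -0.39 (adjusted p = 0.161). A like profile over 6 arrays therefore came with means of either sign, and 5 features had r above 0.95.

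Beyond the 10 genes, lists of the molting pathway held 90 further measured genes, of which 19 were higher and 2 lower in CPF+DZN nematodes in limma. That is 23.3% called, and their median log2 ratio was 0.14. Over all features 13.9% were called, with 6.74% of all features higher and 7.13% lower. Of the features well above background in both channels on all 6 arrays 24.5% were called, and 13.2% were called higher. The same shares belong beside each list count below. In each list below up to 3 genes of smallest p are named. Any further gene was named after its values were seen. After median centring 10 of the 90 were higher and 8 lower. With 1 array left out 3 to 31 were higher and 0 to 6 lower, 3 and 0 without Cy3 replicate 3, 5 and 0 without Cy3 replicate 2, 5 and 1 without Cy5 replicate 2, and 31 and 6 without Cy5 replicate 3. A log2 ratio in these paragraphs is the mean of 6 arrays.

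**Figure D4:**
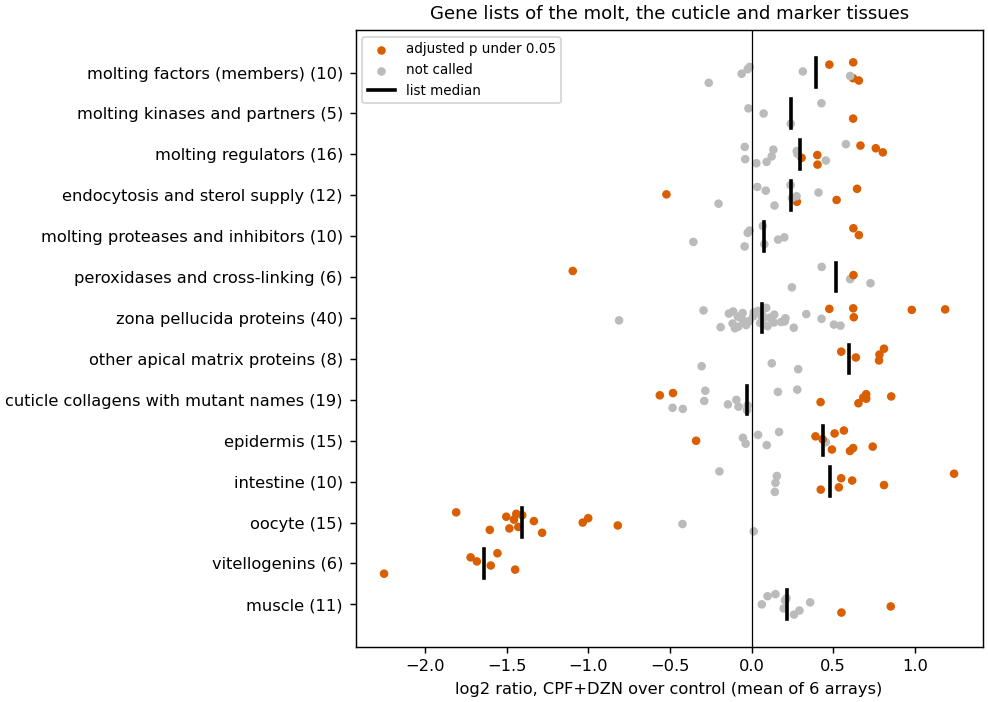
Mean log2 ratio of CPF+DZN over control on 6 arrays (horizontal axis) of every measured gene in 14 lists (rows, with the number measured), orange for an adjusted p under 0.05, grey for genes not called and a black line for the list median. The oocyte and vitellogenin medians lie at -1.40 and -1.64, and the medians of the molting and matrix lists between -0.03 and 0.59.

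Of the kinases and partners that act with MLT-3, none besides mlt-3 itself passed the test among 5 measured. The kinase gene nekl-3 had a log2 ratio of 0.43 (adjusted p = 0.0528 in limma) and mlt-2 one of 0.24 (adjusted p = 0.117), and without Cy5 replicate 3 nekl-3 was called (0.50, adjusted p = 0.0195). Of 16 regulators of the molt, 6 were higher and none lower, with a list median of 0.29, and 4 were never well above background. Of these regulators 0 were called without Cy5 replicate 2, Cy3 replicate 2 or Cy3 replicate 3, 2 without Cy3 replicate 1, 3 without Cy5 replicate 1 and 3 with median centring, where the median was 0.13. The largest of the named ones was myrf-1, a membrane-bound transcription factor of larval development, with 0.80 ± 0.54 (SD, n = 6; adjusted p = 0.0142 in limma). The nuclear receptor gene nhr-25 (0.76, adjusted p = 0.0220) and acn-1, which encodes a protein like angiotensin-converting enzyme (0.40, adjusted p = 0.0190), were also higher. The receptor gene nhr-23 had a log2 ratio of 0.13 (adjusted p = 0.526 in limma), with 3 of 6 arrays above 0.

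Among 12 genes of endocytosis and sterol supply 3 were higher and 1 lower, with a list median of 0.24. After median centring the balance turned, with 0 higher, 3 lower and a median of -0.01, and 0 were higher without Cy5 replicate 2, Cy3 replicate 2 or Cy3 replicate 3, and 1 without Cy5 replicate 1 or Cy3 replicate 1. The patched-related gene ptr-4 (0.65, adjusted p = 0.0170 in limma), lrp-1 and the steroid dehydrogenase gene let-767 (0.28, adjusted p = 0.0440) were higher. The gene ncr-2, a homologue of the human Niemann-Pick C1 cholesterol transporter, was not well above background in any CPF+DZN sample and was above it in 4 of 6 control samples. The log2 ratio of ncr-2 was -0.52 (interval of the fit -0.75 to -0.30, adjusted p = 0.0162 in limma). Its mean control signal was 1.35-fold a ceiling set for its CPF+DZN signal, a value given without sampling error. On each array that ceiling is the larger of the CPF+DZN signal of ncr-2 and the lowest CPF+DZN signal well above background. The call of ncr-2 was lost in 9 of 22 alternatives. Among these were the fits without any 1 of the 3 Cy3 arrays (adjusted p = 0.0518 to 0.0696 in limma). Of 10 molting proteases and inhibitors 2 were higher, mlt-11 and the astacin gene nas-38 (0.62 ± 0.29, SD, n = 6; adjusted p = 0.0104 in limma), and the list median was 0.07. After median centring 0 were higher and 2 lower, with a median of -0.10, and 1 was higher without Cy5 replicate 1 or without any of the 3 Cy3 arrays. The cathepsin L gene cpl-1 had a log2 ratio of -0.36 (adjusted p = 0.140 in limma).

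Of 6 peroxidase and cross-linking genes pxn-2, which encodes a peroxidasin, was higher (0.62, adjusted p = 0.0223 in limma) and skpo-1, which encodes an epidermal heme peroxidase, was lower (-1.10 ± 0.82, SD, n = 6; adjusted p = 0.0384). The call of skpo-1 was lost without any 1 array other than Cy5 replicate 3 (adjusted p = 0.0938 to 0.147 in limma), and that of pxn-2 was lost without Cy5 replicate 1, Cy5 replicate 2, Cy3 replicate 2 or Cy3 replicate 3 (0.0571 to 0.0945). Cy5 replicate 3 was the only array with a ratio above 0 for skpo-1, as it was the only one below 0 for mlt-7. The gene doxa-1, needed for maturation of the dual oxidase BLI-3, had a mean log2 ratio of 0.73 (adjusted p = 0.0573 in limma), above 0 on all 6 arrays. That mean rests on Cy5 replicate 1, with 2.25 against 0.20 to 0.82 on the other arrays, and without it the ratio of doxa-1 was 0.46 (adjusted p = 0.0426).

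Of 40 ZP genes on the array 5 were higher and none lower, 15 were never well above background and the list median was 0.07. With dim probes left out 15 genes remained, 5 of them higher, and the median log2 ratio was 0.26. Without Cy5 replicate 2 or Cy3 replicate 3, 2 of the 40 were higher, without Cy3 replicate 2, 3 were, and without Cy5 replicate 3, 8 were higher and 1 lower. The 5 were let-653 (1.19 ± 0.53, SD, n = 6; adjusted p = 0.00567 in limma), which encodes a matrix protein of the lumen of epithelial tubes, cutl-23 (0.63, adjusted p = 0.00946), fbn-1 (0.98, adjusted p = 0.0185), which encodes a fibrillin-like protein, and noah-2 and noah-1. For cutl-23 the control signal was well above background on 1 array only, so its ratio rests on dim spots. Of 8 other proteins of the apical matrix 5 were higher and none lower. The count was 0 without Cy3 replicate 3, 2 without Cy5 replicate 2 or Cy3 replicate 2, and 3 with 1 lower after median centring. The 5 matrix genes were sym-1 (0.81, adjusted p = 0.0101) and let-4 (0.78, adjusted p = 0.0116), both of leucine-rich repeat proteins, the lipocalin gene lpr-3 (0.78, adjusted p = 0.0135), and lpr-1 and pan-1 (0.64 and 0.55, adjusted p = 0.0169 and 0.0266 in limma).

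Of 19 cuticle collagens with mutant names 6 were higher and 2 lower, with a list median of -0.03. After median centring 4 were higher and 5 lower, with a median of -0.18. Without Cy3 replicate 2 or Cy3 replicate 3, 1 was higher and 0 lower, without Cy5 replicate 2, 2 and 0, without Cy5 replicate 1, 3 and 1, without Cy3 replicate 1, 4 and 0, and without Cy5 replicate 3, 6 and 6. The higher ones were dpy-8 (0.68, adjusted p = 0.0113 in limma), dpy-3 (0.42, adjusted p = 0.0140) and rol-6 (0.70, adjusted p = 0.0163), and dpy-2, dpy-7 and dpy-9. All of the dpy genes called encode collagens of the annular furrows. The lower ones were lon-3 (-0.56, adjusted p = 0.0222) and rol-8 (-0.48, adjusted p = 0.0231).

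The labelled tissue was whole nematodes, and markers of several tissues were present. Of 15 epidermal genes measured, 8 were higher in CPF+DZN nematodes and 1, ifb-1, was lower in limma, with a list median of 0.43 and medians of 0.25 to 0.56 on the single arrays. After median centring 3 were higher and 2 lower, with a median of 0.13. Without Cy3 replicate 3, 2 of the epidermal genes were higher, without Cy5 replicate 2, 3 were, and without Cy3 replicate 1 or Cy3 replicate 2, 4 were. The junction gene dlg-1 (0.62 ± 0.14, SD, n = 6; adjusted p = 0.00563 in limma), the spectrin gene sma-1 (0.51, adjusted p = 0.00648) and vab-19 (0.57, adjusted p = 0.0107), which encodes a protein of epidermal attachment, had the smallest p. The summed linear signal of the epidermal list was 10402 to 14182 in CPF+DZN samples, against 7214 to 10871 in control samples, with elt-1 never well above background. The median ratio of the 10 molting genes was 0.39, or 0.13 after median centring, beside 0.43 and 0.13 for the epidermal list, and no test of the difference was made.

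The intestinal list had a median of 0.48, with 6 of 10 genes higher (2 higher and 1 lower after median centring, and 3 higher without Cy5 replicate 2, Cy3 replicate 2 or Cy3 replicate 3), led by cpr-1 (0.81, adjusted p = 0.00420 in limma). The muscle list had a median of 0.21, with 2 of 11 higher, myo-3 (0.85, adjusted p = 0.000971) and deb-1 (0.55, adjusted p = 0.00990). The oocyte list had a median of -1.40, and its summed linear signal was 11304 to 47722 in CPF+DZN samples, against 47223 to 67559 in control samples, with the eggshell gene chs-1 never well above background. The yolk receptor gene rme-2 was lower, at -1.81 ± 0.87 on the log2 scale (SD, n = 6; adjusted p = 0.0113 in limma). The summed vitellogenin signal was 35461 to 111986 in CPF+DZN samples, against 103035 to 237319 in control samples. On each array every ratio is relative to the loess curve through all spots, so a lower share of germ-line RNA and a higher level of epidermal RNA cannot be told apart from these ratios alone. The part of the oocyte and vitellogenin change in the ratios of the molting genes was not tested.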

How the data were processed

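The deposited scanner files hold, for each spot and channel, intensity values (foreground median and mean, background median and SD) and the percent of saturated pixels. Per the file headers these came from the scanner software without normalization. A table of log2 ratios deposited by the authors was normalized with loess and Aquantile (limma 3.2.3 in the submitters' processing notes). Set against the scanner values its ratios ran as CPF+DZN over control on all arrays (r = 0.870 to 0.957), with column medians of -0.00313 to 0.000102, 5.47 to 21.5% of values missing and slopes of 0.662 to 0.786, so part of its scale stays unknown. Its background correction and the meaning of the spot flags are not given in the sources used here. It served as an alternative, in which missing values were dropped, and all spots were kept. In it the log2 ratios were 0.45 for mlt-3, 0.61 for mlt-11 and 0.43 for noah-2. For noah-1 the log2 ratio was 0.29, with its values on Cy3 replicates 2 and 3 missing. For mlt-7 it was 0.15, with its values on Cy5 replicates 1 and 2 and Cy3 replicate 3 missing. All of these lay below the main fit.

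Foreground medians were corrected with normexp (offset 50) and normalized by loess, with weight 0 for control spots, and Aquantile (limma 3.58.1, R 4.3.3). Where a gene had several probes the one of highest mean intensity was used, and the other probes are described beside it. The 6 log2 ratios of each of 18999 features were fitted with the CPF+DZN effect and a gene-specific dye effect (lmFit, eBayes), and features were called at a Benjamini-Hochberg adjusted p under 0.05, two-sided. Every adjusted p is from this limma model unless another setting is named. The model was tested on simulated data. Intervals are 95% intervals of the fit, with the variance of each feature moderated by eBayes. The log2 signals of both samples were taken from mean intensity and ratio after normalization. No member spot was saturated. Gene names and chromosomes came from the platform table and RefSeq, used for names and gene order only. Sequences were not used here.

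All 10 genes and their probes are described. In the other lists up to 3 genes of smallest p are named, and for the gene of smallest p the 3 features of most similar ratios. The genes and lists were chosen with earlier results of these data known. The labels number the arrays 1 to 3 within each dye orientation. Array ratios with the same number did not deviate together.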

Additional observations from a re-analysis of the deposited data

How the results depend on the processing

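Against 24 alternatives each, the call held in 21 for mlt-3, 19 for noah-2, 16 for mlt-11 and 13 for noah-1. Among these, the slide series as a block and leaving out Cy5 replicate 3 gave identical values, because the block fits that array exactly. They are 1 fit counted under 2 names. The count of molting genes called was 4, and it was 0 with background subtraction, 1 with median centring, 1 within the later slide series, 0 in the linear model of the study's methods (none of the 10 at its p threshold of 0.01, 3 at an unadjusted p under 0.05) and 1 to 5 with 1 array left out. The count over all features was 2636, against 153 with background subtraction, 4118 with median centring, 950 with the replicate number as a block, 4609 with the slide series as a block, 891 within the later slide series, 56 in the methods' linear model (583 at its p threshold) and 535 to 4609 with 1 array left out. It was 535 without Cy3 replicate 3, 735 without Cy3 replicate 2, 833 without Cy5 replicate 2, 993 without Cy5 replicate 1, 1165 without Cy3 replicate 1 and 4609 without Cy5 replicate 3. Of the calls 16.5% were higher with median centring, against 48.6% with loess. The count of molting genes was 2 without Cy5 replicate 1, Cy5 replicate 2 or Cy3 replicate 2, and 1 without Cy3 replicate 3.

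The log2 ratio of mlt-3 was 0.31 with median centring, that of mlt-11 was 0.34, that of noah-2 was 0.36 and that of noah-1 was 0.19. With the replicate number as a block noah-1 lost its call (adjusted p = 0.0658 in limma), and 3 of the 10 genes were called. The correlations of the deviations of same-numbered arrays were -0.107, -0.0065 and -0.233. Values of genes not called in the setting changed sign: nas-37 was 0.052 with print-tip loess, 0.0058 with the arrays of the shared extract number averaged, 0.0033 with the slide series as a block, 0.0063 within the shared scan day and -0.089 to 0.090 with 1 array left out; mlt-8 was 0.012 with the shared extract averaged, 0.23 within the later slides and -0.21 to 0.10 with 1 array left out; mlt-10 was 0.15 within the later slides. The call of mlt-7 was gained in 6 alternatives and that of mlt-10, as lower, in 1 (-0.58 within the shared scan day). The 6 for mlt-7 count the fit without Cy5 replicate 3 again as the slide series block. The causes were not tested. Within the later slides and within the shared scan day only 1 array had CPF+DZN in Cy5, and the dye term fits that array exactly.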
